A study of Mus musculus with 5 samples.

Results

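The genes of the mitochondrial ribosome were read in 5 bulk libraries of mouse haematopoietic stem cells (HSCs), 3 labelled Ythdf3-/- and 2 labelled WT, all of C57BL/6 bone marrow. Each library held 30 cells sorted as CD150+, c-kit+ and Sca-1+ and as free of CD34 and lineage markers, and was made by Smart-seq2, which amplifies full-length cDNA and keeps no strand. The protein YTHDF3 binds mRNA that carries N6-methyladenosine, and the comparison concerns the transcripts of HSCs labelled as lacking it. The labels give neither the allele of the knockout nor the age or sex of the mice. The members are the 77 of 35976 gene rows whose symbol is Mrpl or Mrps followed by a number and at most 1 letter, with at least 100 counts summed over the libraries. That minimum removed none, since all 77 rows with such a name passed it, and all 77 also passed the filter on low counts before the test. The members with the lowest sums were Mrpl47 with 520, Mrpl1 with 877 and Mrps36 with 1613 counts. By name 48 belong to the large subunit (Mrpl) and 29 to the small subunit (Mrps).

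Mitochondrial ribosomes translate the few proteins that mitochondrial DNA encodes, all of them subunits of the respiratory chain and ATP synthase. Their RNAs come from mitochondrial DNA, whereas all of their proteins are encoded in the nucleus, made in the cytosol and imported. Many of these proteins descend from bacterial ribosomal proteins, and others are found in mitochondrial ribosomes and not in bacterial ones. HSCs at rest rely little on respiration, and mitochondrial translation is known to matter when they divide and differentiate.

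The counts of the targeted gene did not follow the labels in all libraries. Values are given in the order of the library numbers, 1 to 3 under the Ythdf3-/- label and 1 and 2 under the WT label. Under the Ythdf3-/- label Ythdf3 had 2, 339 and 366 counts, against 20 and 29 counts under the WT label. The library labelled Ythdf3-/- 1 was thus the lowest of the 5, as its label says, but those labelled Ythdf3-/- 2 and 3 lay above both labelled WT. With the labels exchanged, the library with 2 counts would be a wild type, so neither assignment matches all 5 libraries. The series text counts 2 knockout and 3 wild-type samples, the reverse of the labels, so every direction below refers to the labels alone. Total counts were 6357862 to 9076806 in the libraries labelled Ythdf3-/-, against 16650134 and 8968162 in those labelled WT 1 and WT 2. The HSC markers Kit, Hlf, Mecom and Mllt3 were read in all 5 libraries, but Slamf1, which encodes the sorted marker CD150, had 1 count in the library labelled WT 2. Under the Ythdf3-/- label Fgd5 had 2, 713 and 5 counts, and under the WT label 582 and 303. Tek had 245, 485 and 2 counts under the Ythdf3-/- label and 2538 and 145 under the WT label. The library labelled WT 2 also had 1061 counts of the erythroid factor Gata1, which had at most 6 elsewhere, and the library labelled Ythdf3-/- 1 had 117770 counts of the globin gene Hba-a1, which had at most 2438 elsewhere. Libraries are bulk samples, so fewer cells of a type and less RNA per cell cannot be told apart.

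Promoter sequences are shown because many members share motifs there. RefSeq windows of GRCm38.p6, from 250 bases before to 50 bases after each start, were found for 68 of the 77 members, in 74 windows. Searched on both strands, the letters GCGCA and GCGC with any base between them, a core of the site of NRF1, an activator of nuclear genes for mitochondria, were present in 13 member windows (17.6%) and in 4.60% of all 32851 windows. The letters CCGGAAG, a core bound by ETS factors such as GABPA, were present in 25 member windows (33.8%) and in 8.86% of all. A YY1 core, AANATGGCG, was present in 10 member windows (13.5%) and in 2.38% of all. At least 1 of them stood in 41 member windows (55.4%), against 14.2% of all, and member windows were richer in G and C (median 58.5% against 52.7%). The ETS and YY1 letters can overlap in AAG, and matches of different motifs overlapped in 0 member windows. A match is a description of the sequence alone. The YY1 matches lay at positions 9 to 37 after the start, except those of Mrpl36 and Mrps11, at -31 and -108. The YY1 letters contain ATG, and whether a match holds a start codon was not examined. The windows below are printed 5′ to 3′ on the gene's strand with matches in capitals. They show NRF1 letters for Mrpl45, ETS letters for Mrpl52 and YY1 letters for Mrpl42 and for Mrps11. The Mrps11 window also spans the start of its divergent neighbour Mrpl46, 42 bases away on the minus strand. The YY1 match in that window, at -108, lies beyond that start, on the transcribed side of Mrpl46. It therefore cannot be assigned to Mrps11 alone.
Mrpl45 (chr11:97315466-97315765, plus strand): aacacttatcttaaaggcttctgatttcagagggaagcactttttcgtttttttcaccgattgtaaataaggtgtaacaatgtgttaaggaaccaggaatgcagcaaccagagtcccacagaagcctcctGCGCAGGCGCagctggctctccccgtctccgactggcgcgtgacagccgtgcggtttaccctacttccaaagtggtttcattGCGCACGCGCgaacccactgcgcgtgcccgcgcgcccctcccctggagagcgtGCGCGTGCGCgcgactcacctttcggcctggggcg
Mrpl52 (chr14:54426659-54426958, plus strand): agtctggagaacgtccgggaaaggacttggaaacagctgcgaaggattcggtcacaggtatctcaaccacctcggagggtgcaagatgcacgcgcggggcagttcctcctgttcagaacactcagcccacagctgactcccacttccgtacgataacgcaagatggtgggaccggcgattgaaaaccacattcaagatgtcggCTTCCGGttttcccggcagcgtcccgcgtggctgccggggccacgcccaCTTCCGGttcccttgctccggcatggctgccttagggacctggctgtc
Mrpl42 (chr10:95501900-95502199, minus strand): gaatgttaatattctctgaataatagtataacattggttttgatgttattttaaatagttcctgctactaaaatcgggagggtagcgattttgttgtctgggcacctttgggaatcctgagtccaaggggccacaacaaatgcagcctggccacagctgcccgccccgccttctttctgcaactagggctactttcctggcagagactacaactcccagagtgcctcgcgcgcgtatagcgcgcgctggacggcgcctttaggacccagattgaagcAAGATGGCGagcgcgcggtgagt
Mrps11 (chr7:78782881-78783180, plus strand): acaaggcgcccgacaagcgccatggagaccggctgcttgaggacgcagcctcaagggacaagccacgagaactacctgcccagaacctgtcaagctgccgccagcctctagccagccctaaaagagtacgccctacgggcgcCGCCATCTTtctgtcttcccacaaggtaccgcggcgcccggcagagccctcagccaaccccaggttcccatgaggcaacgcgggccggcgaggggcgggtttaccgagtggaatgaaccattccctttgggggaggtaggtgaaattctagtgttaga

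The members together took 0.783%, 0.842% and 0.679% of counts under the Ythdf3-/- label, against 0.792% and 1.08% under the WT label. As summed CPM (counts divided by the library's total and scaled to a common size), this was 7680 ± 822 (SD, n = 3) under the Ythdf3-/- label and 9365 ± 2047 (SD, n = 2) under the WT label. The library labelled WT 1, at 7918 CPM, lay among those labelled Ythdf3-/-, so the groups overlapped. The log2 ratio of the label means was -0.29 and became -0.044 without the library labelled WT 2. Grouped by symbol, the Mrpl and Mrps genes kept nearly the same proportion. Summed Mrpl over summed Mrps levels were 1.92, 1.78 and 1.98 under the Ythdf3-/- label and 1.98 and 2.002 under the WT label. The Mrps genes here include Mrps18a, Mrps30 and Mrps36, which are placed otherwise below.

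**Figure D1:**
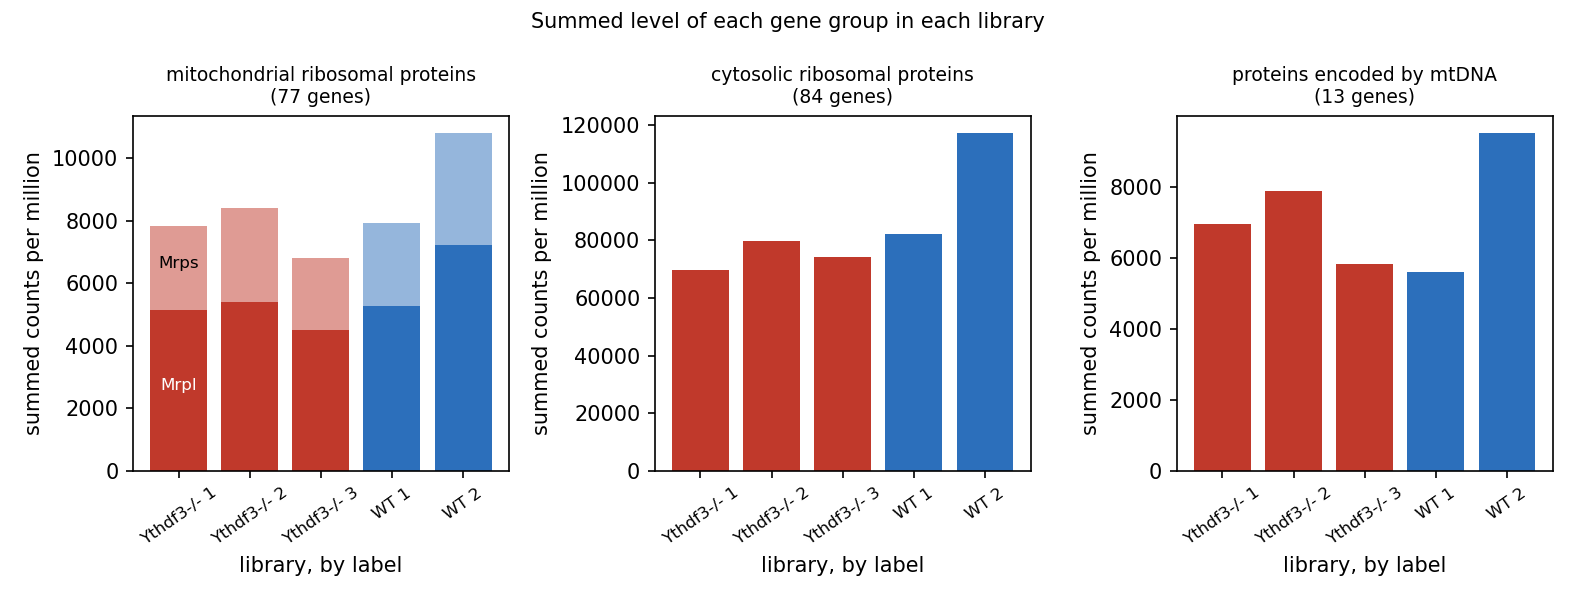
Summed CPM (y axis, from 0) of 3 gene groups in each library (x axis), red for the Ythdf3-/- label and blue for the WT label; in the left panel the lower part of a bar is Mrpl and the paler part Mrps. In each panel the library labelled WT 2 holds the highest bar, with 10812 CPM for the 77 members.

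The summed levels of cytosolic ribosomal protein genes and of mitochondrial DNA transcripts were likewise highest in the library labelled WT 2. The 84 cytosolic genes summed to 69797, 79728 and 74193 CPM under the Ythdf3-/- label, against 82006 and 117269 CPM under the WT label. Of the 80 tested 78 were fitted lower under the Ythdf3-/- label, against 52.2% of all genes tested. Their median log2 fold change was -0.71, beside -0.06 for all genes. With the library labelled WT 2 left out it was -0.24, beside 0.22 for the 12759 genes tested in that fit. For the 11124 of these also tested with all 5 libraries the median was 0.11. In 41 of the 80 all libraries labelled Ythdf3-/- lay below both labelled WT, as did 11.0% of all genes tested. The 13 protein-coding genes of mitochondrial DNA, the templates of the mitochondrial ribosome, summed to 6950, 7887 and 5813 CPM under the Ythdf3-/- label, against 5586 and 9515 CPM under the WT label. CYTB and ATP8, the latter with at most 3 counts, were not highest in the library labelled WT 2. CYTB had 3657 CPM in the library labelled Ythdf3-/- 2 and 2777 CPM in that labelled WT 2. Most of each library's sum came from CYTB and COX1. COX1 had 2314, 2702 and 1943 CPM under the Ythdf3-/- label and 1513 and 3180 CPM under the WT label, while ATP6 had at most 45.9 CPM.

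No member passed the edgeR quasi-likelihood test between the labels. With Benjamini-Hochberg adjustment over 11146 genes the lowest adjusted p of a member was 0.964, and 0% of all genes tested were called. At an unadjusted p under 0.05 stood 1 member, Mrpl2, fitted lower (1.30% of the 77), against 4.85% of all genes tested, 2.75% lower and 2.11% higher. Without the library labelled WT 1 there were 9 such members (11.7%), against 7.96% of all genes. DESeq2, which called 4.0% of 14945 genes, and limma voom, which called 0%, each called 0 members. At an unadjusted p under 0.05 DESeq2 had 1 of 77 members, against 1759 of 14945 genes. Limma voom had 2 of 77 members, against 726 of 11146 genes. In edgeR without the low-count filter 0.138% of genes were called, and without the library labelled WT 1 0.00783%, with 0 members in either. Fitted levels were lower under the Ythdf3-/- label for 59 of 77 members (76.6%), against 52.2% of all genes tested. The median log2 fold change of the members was -0.42, beside -0.06 for all genes. Without the library labelled WT 2 the count was 47 of 77, against 44.5% of the 12759 genes tested in that fit. The member median was then -0.18, beside 0.22 for those genes. Of the 11124 genes also tested with all 5 libraries, 5202 were fitted lower without that library, and their median was 0.11. For 53 members the fitted log2 fold change was smaller than its own SE.

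**Figure D2:**
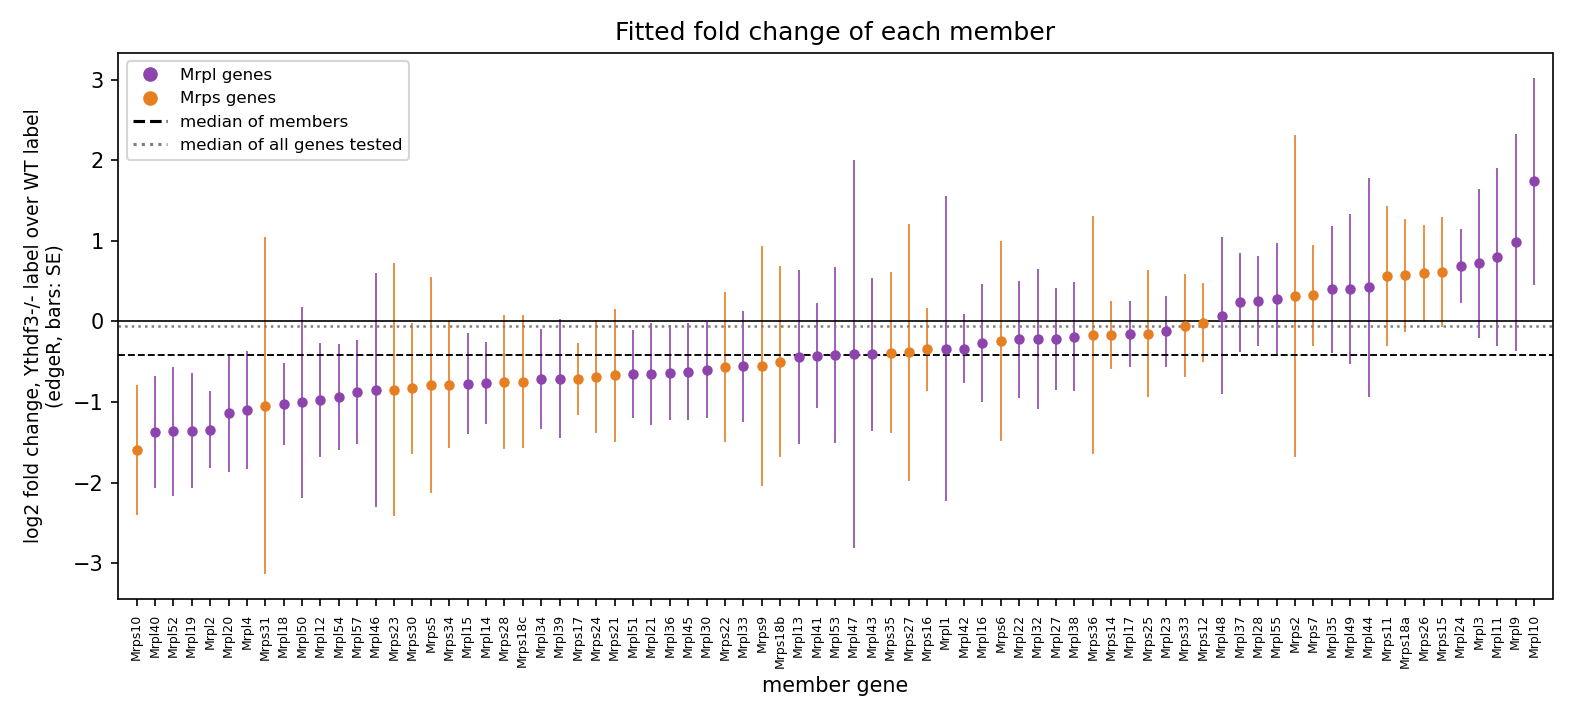
Fitted log2 fold change (y axis, Ythdf3-/- label over WT label, bars are SE) of each of the 77 members (x axis), purple for Mrpl and orange for Mrps, with the medians of the members (-0.42) and of all genes tested (-0.06) as dashed and dotted lines. Most bars cross 0, and Mrps10 and Mrpl10 are at the ends, at -1.60 and 1.74.

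The lower fitted levels were spread over both subunits and both origins. Among large-subunit proteins of bacterial type 22 of 29 were fitted lower (median -0.41), and among those specific to mitochondria 15 of 21 (median -0.43). This second list holds Mrps18a and Mrps30, which sit in the large subunit despite their names. For small-subunit proteins the counts were 12 of 16 of bacterial type and 9 of 10 specific to mitochondria, with a median of -0.45 in each. Without the library labelled WT 2 the 4 counts were 19 of 29, 14 of 21, 8 of 16 and 5 of 10. Mrps36, which acts in the 2-oxoglutarate dehydrogenase complex, was left out of these lists. It had 39.0, 48.5 and 8.69 CPM under the Ythdf3-/- label and 33.1 and 34.9 CPM under the WT label.

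Groups that do not overlap, with all libraries of a label above all those of the other, were found for 11 members. In 8 of 77 (10.4%) the Ythdf3-/- label was lower, against 11.0% of all genes tested, and in 3 (3.90%) it was higher, against 9.74%. Both shares were at or under those of all genes. The 8 were Mrpl2, Mrpl40, Mrpl19, Mrps17, Mrpl14, Mrpl45, Mrpl39 and Mrpl33. The 3 were Mrpl24, Mrpl10 and Mrps18a.

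**Figure D3:**
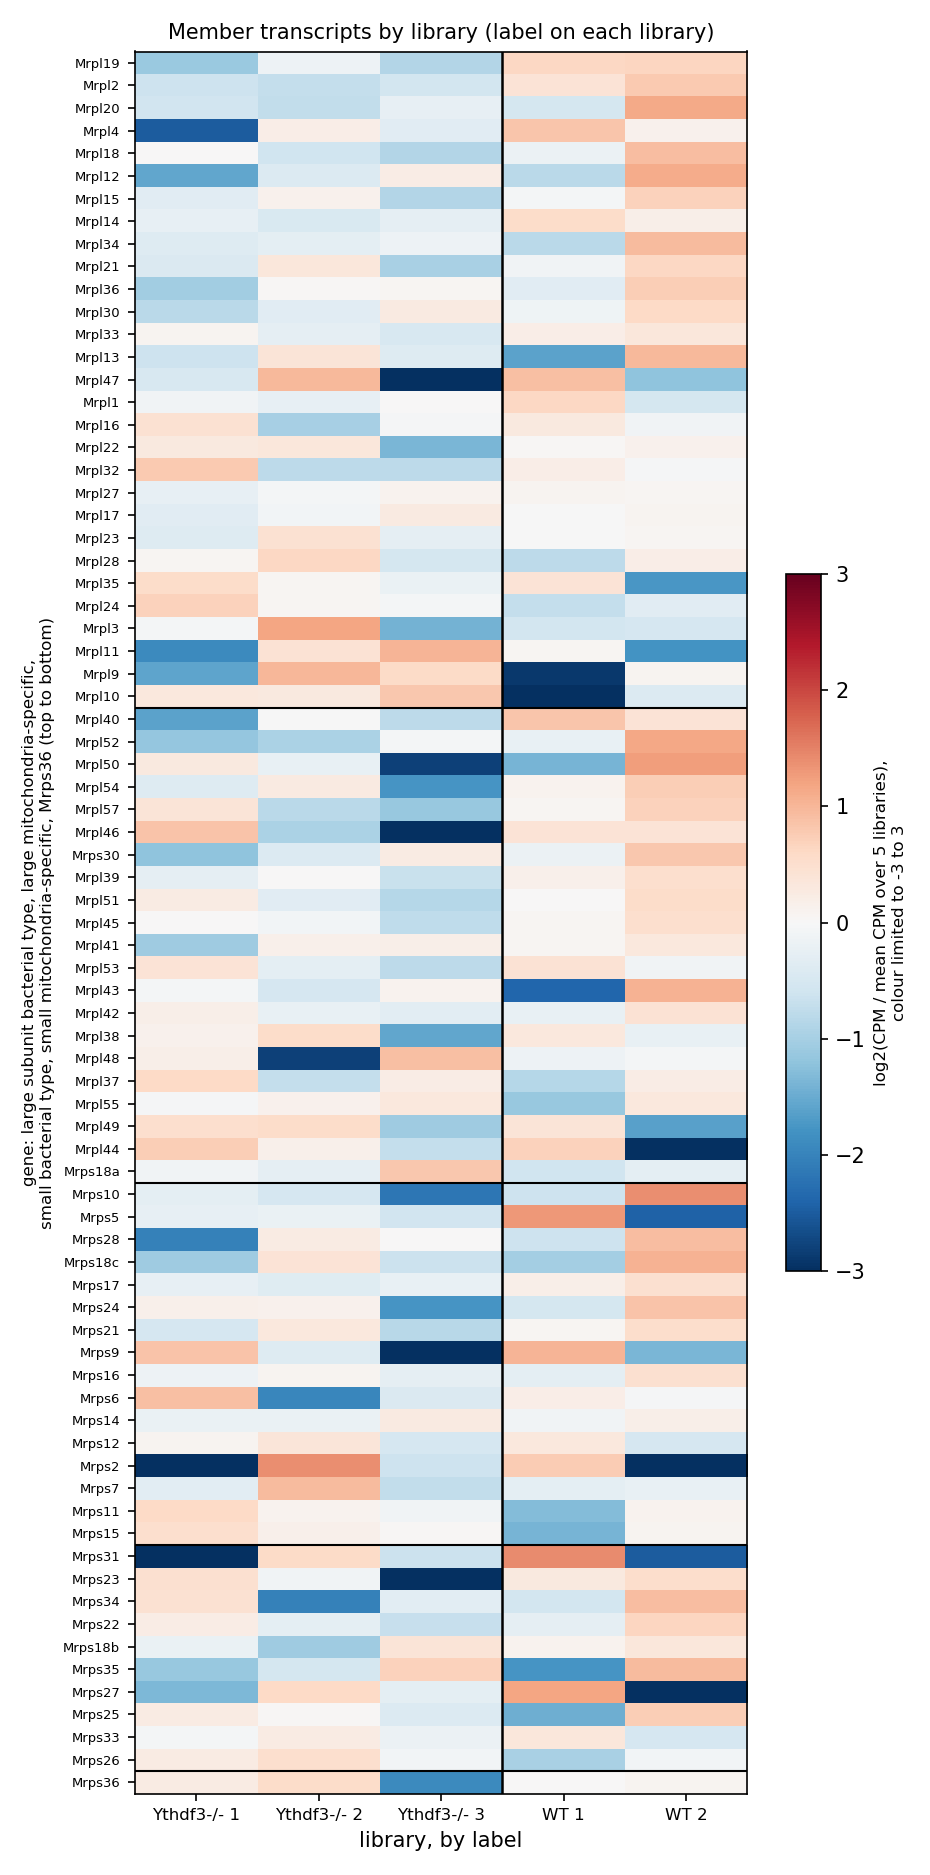
Level of each member (rows) in each library (columns, by label) as log2 of its CPM over its mean CPM in the 5 libraries, red above and blue below the mean, with colour limited to -3 to 3. Single dark cells, such as Mrps2 and Mrps31 in the library labelled Ythdf3-/- 1 and Mrps27 in that labelled WT 2, mark members nearly missing from 1 or 2 libraries.

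Mrpl2, a protein of bacterial type next to the peptidyl transferase centre, had the smallest p of the members (chromosome 17, 46646229 to 46650139, GENCODE M21 on GRCm38). It had 95.8, 89.7 and 102 CPM under the Ythdf3-/- label, against 198 and 256 CPM under the WT label. All 3 values under the Ythdf3-/- label were close together and well below both of the others. The log2 fold change was -1.34 (SE 0.47, edgeR, unadjusted p = 0.0217, adjusted p = 0.964), and it ran from -1.55 to -1.09 when each library was left out in turn.

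The central protuberance, the crown of the large subunit over the tRNA sites, was fitted lower in 5 of its 6 members listed here (median log2 fold change -0.54). Mrpl40 (chromosome 16, 18872018 to 18876862) had 32.4, 97.2 and 57.7 CPM under the Ythdf3-/- label and 175 and 131 CPM under the WT label. Its groups did not overlap, and its log2 fold change was -1.37 (SE 0.70). Mrpl18, the counterpart of a bacterial protein that binds 5S rRNA, had 213, 140 and 115 CPM under the Ythdf3-/- label and 189 and 402 CPM under the WT label. Here the library labelled WT 2 alone stood high, and leaving it out brought the log2 fold change of -1.02 to -0.31. Mrpl27 was the steadiest member, with 78.2, 89.3 and 99.6 CPM under the Ythdf3-/- label and 97.8 and 96.8 CPM under the WT label. Mrpl46 had 151, 43.3 and 0.713 CPM under the Ythdf3-/- label, against 111 and 110 CPM under the WT label, so 1 library nearly lacked it.

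Around the exit of the nascent chain 5 of 7 members were fitted lower, with a median log2 fold change of -0.22. Mrpl45, which lies at the tunnel exit and faces the inner membrane, had 112, 104 and 65.3 CPM under the Ythdf3-/- label and 115 and 156 CPM under the WT label, a narrow gap. Mrpl44, which has a fold like that of ribonuclease III, had 148, 98.2 and 54.0 CPM under the Ythdf3-/- label and 143 and 1.78 CPM under the WT label. Only the library labelled WT 2 was low, with 16 counts, and the fitted log2 fold change of 0.42 was 5.67 once WT 1 was left out and -0.55 once WT 2 was. Mrpl24 (chromosome 3, 87919506 to 87923672) was fitted higher, with 341, 221 and 203 CPM under the Ythdf3-/- label and 129 and 168 CPM under the WT label (log2 fold change 0.69, SE 0.46). It shares 594 bases of exon, 38.2% of its own, with Rrnad1, and without strand the reads of both genes cannot be told apart there.

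The stalk, which recruits translation factors to the large subunit, had 2 of 3 members fitted higher and 1 fitted lower under the Ythdf3-/- label, and 3 of 3 fitted higher without the library labelled WT 2. Mrpl10, its base (chromosome 11, 97041560 to 97049213), had 111, 110 and 157 CPM under the Ythdf3-/- label and 1.74 and 67.6 CPM under the WT label. The library labelled WT 1 held 29 counts of it, and the log2 fold change of 1.74 (SE 1.29) was 0.77 with that library left out and 6.13 with the one labelled WT 2 left out. Mrpl12, which sits on Mrpl10 and is also known to bind the mitochondrial RNA polymerase, had 59.5, 131 and 203 CPM under the Ythdf3-/- label and 99.7 and 377 CPM under the WT label. Leaving out the library labelled WT 2 turned its log2 fold change of -0.98 to 0.37. Counts of Mrpl10 per count of Mrpl12 were 1.87, 0.841 and 0.772 under the Ythdf3-/- label and 0.0175 and 0.179 under the WT label, a ratio chosen after its values were seen. Mrpl11, at the foot of the stalk, had 18.1, 93.1 and 140 CPM under the Ythdf3-/- label and 71.4 and 19.8 CPM under the WT label, so its groups overlapped.

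**Figure D4:**
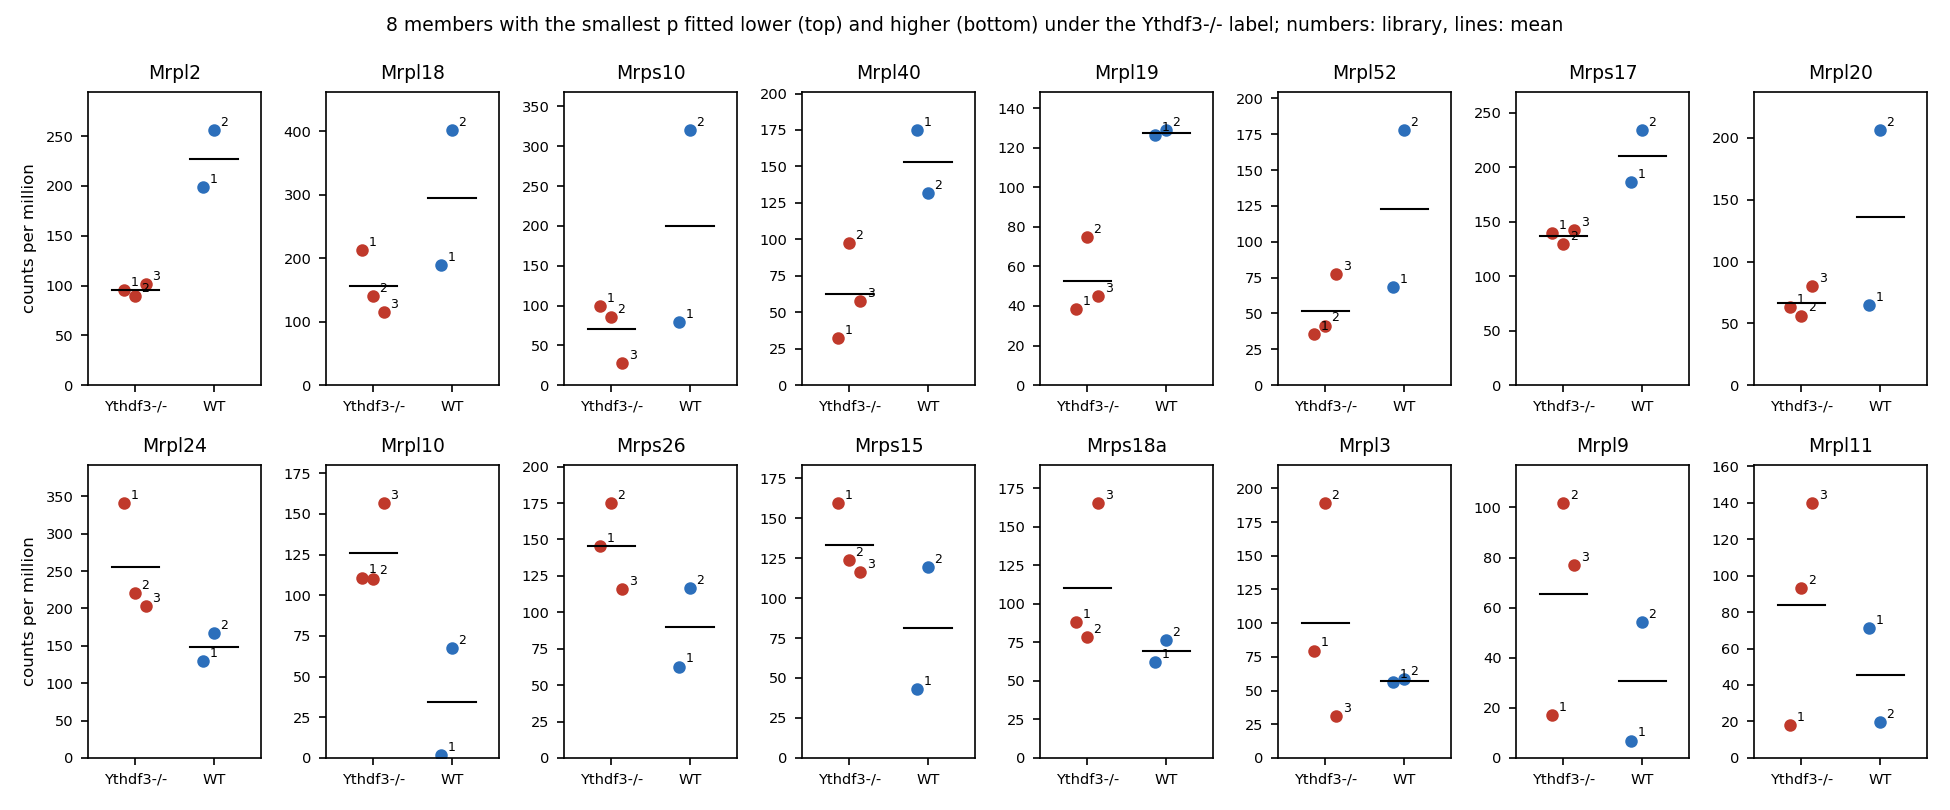
CPM (y axis, from 0) in each library of the 8 members fitted lower (top) and the 8 fitted higher (bottom) under the Ythdf3-/- label with the smallest p in edgeR; points are libraries with their number, red for the Ythdf3-/- label and blue for the WT label, and lines are label means. In Mrpl2 and Mrps17 all points of one label lie apart from the other, while in Mrps10 and Mrpl20 the point of the library labelled WT 2 stands alone.

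Among other large-subunit members some lay apart by label and others rested on 1 library. Mrpl19 had 38.4, 74.9 and 45.0 CPM under the Ythdf3-/- label and 126 and 129 CPM under the WT label. Its groups lay apart (log2 fold change -1.36, SE 0.71), but 39.2% of its exon bases overlap Gcfc2. Mrpl14, which touches the small subunit, had 109, 94.9 and 108 CPM under the Ythdf3-/- label and 188 and 146 CPM under the WT label, again without overlap. Mrpl52 had 35.9, 41.5 and 77.2 CPM under the Ythdf3-/- label and 68.3 and 178 CPM under the WT label, and Mrpl20 had 62.9, 56.3 and 80.0 CPM under the Ythdf3-/- label and 65.0 and 206 CPM under the WT label. In both the library labelled WT 1 lay within the values of the Ythdf3-/- label, and the log2 fold changes of -1.37 and -1.14 came to -0.44 and -0.0042 with the library labelled WT 2 left out.

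Higher fitted levels in the large subunit were uneven among libraries. Mrpl3 had 79.6, 189 and 30.8 CPM under the Ythdf3-/- label and 56.3 and 58.4 CPM under the WT label, and leaving out the library labelled Ythdf3-/- 2 turned its log2 fold change of 0.72 to -0.15. Mrpl9 had 17.1, 102 and 77.1 CPM under the Ythdf3-/- label and 6.91 and 54.3 CPM under the WT label, with both labels holding a low library. Mrps18a had 88.1, 78.1 and 165 CPM under the Ythdf3-/- label and 62.0 and 76.6 CPM under the WT label, a gap of less than the spread within the Ythdf3-/- label.

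In the small subunit, Mrps10, a protein of the head, had 99.2, 85.6 and 27.4 CPM under the Ythdf3-/- label and 79.0 and 320 CPM under the WT label. Its log2 fold change of -1.60 (SE 0.81), the lowest fitted among the members, came to -0.20 with the library labelled WT 2 left out. Mrps17, a binder of the small rRNA, had 139, 130 and 142 CPM under the Ythdf3-/- label and 187 and 234 CPM under the WT label. These groups did not overlap, with a log2 fold change of -0.71 (SE 0.45). Mrps12, the decoding-centre protein whose bacterial counterpart sets the accuracy of translation, had 207, 252 and 137 CPM under the Ythdf3-/- label and 244 and 138 CPM under the WT label, with no order by label.

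On the higher side of the small subunit stood Mrps26 and Mrps15. Mrps26 had 145, 175 and 116 CPM under the Ythdf3-/- label and 62.8 and 117 CPM under the WT label. Mrps15 had 159, 124 and 116 CPM under the Ythdf3-/- label and 43.0 and 119 CPM under the WT label. In both the library labelled WT 1 was the low one, and the log2 fold changes of 0.60 and 0.61 became 0.19 and 0.029 without it.

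Levels between members can be set side by side only per length, here as mean CPM per kb of exon in the GENCODE M21 basic set. Mrpl42 was the highest at 346 CPM per kb, followed by Mrpl54 at 256, Mrpl34 at 241, Mrpl23 at 238, Mrps12 at 210 and Mrpl14 at 200.5 CPM per kb. By library, Mrpl42 ranked 1, 3 and 1 of the 77 under the Ythdf3-/- label and 1 and 2 under the WT label. Mrpl54 ranked 6, 2 and 28 under the Ythdf3-/- label and 3 and 3 under the WT label, so the order below Mrpl42 changed among libraries. In raw CPM, Mrpl42 had 267, 202 and 189 under the Ythdf3-/- label and 200 and 318 under the WT label, Mrpl34 had 112, 119 and 133 under the Ythdf3-/- label and 83.5 and 285 under the WT label, and Mrpl23 had 175, 315 and 192 under the Ythdf3-/- label and 228 and 238 under the WT label. None of these split by label. At the low end were Mrps5 at 9.73, Mrpl1 at 3.91 and Mrpl47 at 2.69 CPM per kb.

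Several members were nearly missing from 1 or more libraries and higher in the others. Of 385 member values 17 lay under 10 CPM, in 13 members, and no member was at 0 counts in any library. Mrps31 had 1, 401 and 133 counts under the Ythdf3-/- label and 1315 and 47 counts under the WT label. Mrps2, of bacterial type, had 5, 1299 and 247 counts under the Ythdf3-/- label and 1538 and 8 counts under the WT label, so each label held a library with the gene and a library nearly without it. Mrps27, a protein of the pentatricopeptide repeat family that binds RNA, had 198, 1077 and 453 counts under the Ythdf3-/- label and 2994 and 4 counts under the WT label. The library labelled Ythdf3-/- 3 held 2 counts of Mrpl47, 5 of Mrps23, 5 of Mrpl46 and 7 of Mrps9. Mrpl47 was also under 10 CPM in the libraries labelled WT 2, with 35 counts, and Ythdf3-/- 1, with 41 counts. Mrps23 had 394 and 379 counts in the other libraries labelled Ythdf3-/- and 904 and 575 under the WT label. Likewise Mrps9 had 893 and 546 counts, against 2642 and 272 under the WT label.

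Mrpl46 and Mrps11 are the 1 pair of members that start head to head, with RefSeq starts 42 bases apart on chromosome 7 (78783089 on the minus strand and 78783131 on the plus strand). The Mrps11 window printed above spans both starts. In the library labelled Ythdf3-/- 3, where Mrpl46 had 5 counts, Mrps11 had 455. Mrps11 had 672 and 679 counts in the other libraries labelled Ythdf3-/- and 471 and 669 under the WT label.

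Gaps between libraries were set beside those of other genes of like level. In each gene the highest CPM was divided by the lowest over the 5 libraries. The median ratio was 3.66 for the 39 members between the quartiles of member means (76.99 to 146 CPM) and 4.17 for all 1676 genes of that range. A ratio over 10 was found for 20.5% of those members and 22.0% of those genes. A level under 1 CPM in at least 1 library was found for 3 of the 39 members (7.69%) and for 52 of the 1676 genes (3.10%). Over all 77 members the ratio ran from 1.27 for Mrpl27 to 502 for Mrps31.

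The highest level of a member lay most often in the library labelled WT 2, which held it for 36 of 77 members (46.8%), 23 Mrpl and 13 Mrps genes. Within the quartile range it held that of 21 of 39 members (53.8%), against 21.2% of all 1676 genes, with no test since members of 1 library are not replicates. The libraries labelled Ythdf3-/- 1, 2 and 3 and WT 1 held the highest value of 10, 13, 8 and 10 members.

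**Figure D5:**
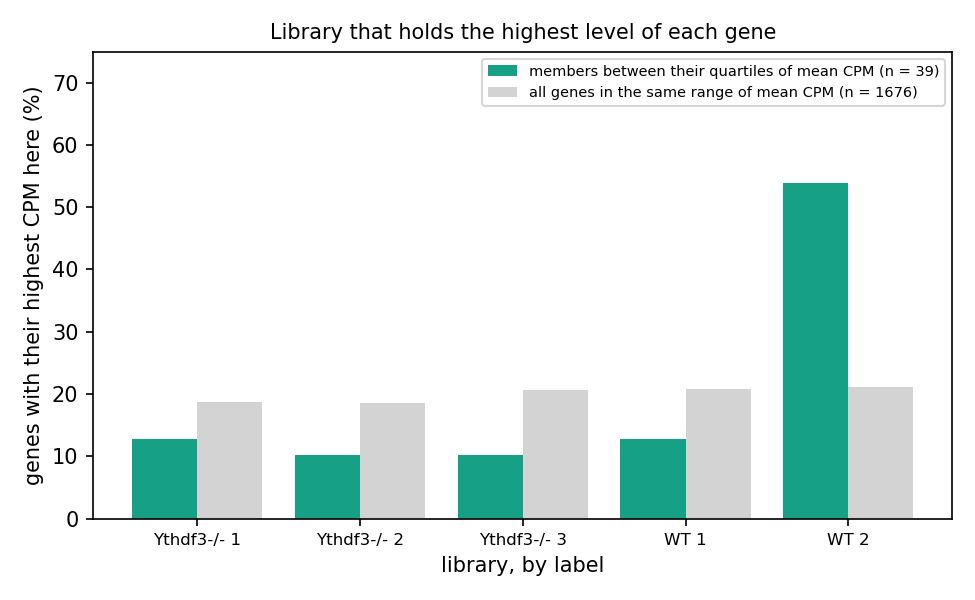
Share of genes (y axis, percent) whose highest CPM fell in each library (x axis), for the 39 members between their quartiles of mean CPM (green) and for all 1676 genes in that range (grey). The library labelled WT 2 holds 53.8% of the members and 21.2% of the genes, while the other libraries hold a smaller share of members than of genes.

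The summed level of markers of dividing cells was also highest in that library. The 12 mitosis genes summed to 183, 35.8 and 38.2 CPM under the Ythdf3-/- label, against 160 and 849 CPM under the WT label, and 8 of them were highest in the library labelled WT 2. Of the 9 tested, 9 were fitted lower under the Ythdf3-/- label, and 6 of 11 without the library labelled WT 2. Ccnb2, Cdca8 and Kif11 were at 0 in the library labelled Ythdf3-/- 1, Ccnb1 in that labelled Ythdf3-/- 2 and Bub1 in that labelled WT 2. Of 13 erythroid genes 11 were tested and 6 fitted lower, or 1 of 11 without that library. They summed to 37702, 2197 and 1974 CPM under the Ythdf3-/- label and 2632 and 3354 CPM under the WT label, with Alas2 at 0 in the library labelled Ythdf3-/- 3. B cell markers summed to 97.1 to 1562 CPM under the Ythdf3-/- label and 58.9 to 604 CPM under the WT label, and myeloid markers to 747 to 1104 CPM under the Ythdf3-/- label and 463 to 475 CPM under the WT label. Most of each myeloid sum was Lyz2, with 1004, 672 and 614 CPM under the Ythdf3-/- label and 434 and 416 CPM under the WT label. Of the 10 myeloid genes 5, 4 and 1 were at 0 counts under the Ythdf3-/- label and 2 and 6 under the WT label. Megakaryocyte markers summed to 155 to 200.1 CPM under the Ythdf3-/- label and 210 to 287 CPM under the WT label. The part of these markers in the levels of the mitochondrial ribosomal genes was not tested.

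Other genes of mitochondrial translation were read from lists, and 0 of their genes passed edgeR (lowest adjusted p 0.96). Of 5 mitochondrial ribosomal proteins with other symbols 2 were fitted lower, or 1 without the library labelled WT 2. Dap3, a GTP-binding protein of the small subunit, had 96.7, 128 and 217 CPM under the Ythdf3-/- label and 49.97 and 38.2 CPM under the WT label (means 147 ± 62.4 CPM, SD, n = 3, under the Ythdf3-/- label and 44.1 ± 8.29 CPM, SD, n = 2, under the WT label). Every library labelled Ythdf3-/- lay above both labelled WT (log2 fold change 1.65, SE 0.69, edgeR adjusted p = 0.98). Chchd1 had 82.4, 97.8 and 109 CPM under the Ythdf3-/- label and 87.5 and 161 CPM under the WT label.

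Of 15 mitochondrial translation factors 8 were fitted lower, with a median log2 fold change of -0.09. Mtfmt, which formylates the initiator methionyl-tRNA, had 48.9, 89.1 and 60.7 CPM under the Ythdf3-/- label and 0.781 and 0.223 CPM under the WT label, and did not overlap (log2 fold change 6.92, SE 1.81, edgeR adjusted p = 0.96). Gfm1, the elongation factor that moves the ribosome along, had 0, 2 and 1 counts under the Ythdf3-/- label and 25 and 112 counts under the WT label, few in any library.

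Among 24 tested assembly factors 12 were fitted lower (median 0.08). Trub2, a pseudouridine synthase of mitochondrial RNA, had 9.75, 0.220 and 0.570 CPM under the Ythdf3-/- label and 62.9 and 33.7 CPM under the WT label, and Mpv17l2 had 27.1, 58.3 and 89.9 CPM under the Ythdf3-/- label and 80.8 and 195 CPM under the WT label. For the 17 mitochondrial tRNA synthetases the count was 8 (median 0.47). Lars2, the leucyl enzyme, had 98.5, 225 and 159 CPM under the Ythdf3-/- label and 239 and 1156 CPM under the WT label, and its log2 fold change of -2.23 came to -0.60 with the library labelled WT 2 left out. Hars2, the histidyl enzyme, had 149, 84.5 and 48.5 CPM under the Ythdf3-/- label and 25.6 and 0.446 CPM under the WT label.

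Genes that copy mitochondrial DNA and handle its RNA were fitted lower in 10 of 17 (median -0.08). Polg2, the accessory subunit of the mitochondrial DNA polymerase, had 64.0, 21.9 and 43.0 CPM under the Ythdf3-/- label and 6.97 and 0.335 CPM under the WT label, and Mgme1, a nuclease of mitochondrial DNA, had 59.6, 67.8 and 275 CPM under the Ythdf3-/- label and 93.0 and 6.58 CPM under the WT label. Of 8 tested regulators of mitochondrial biogenesis 4 were fitted lower, or 1 without the library labelled WT 2. Myc, an activator of ribosomal and mitochondrial genes, had 1028, 737 and 755 CPM under the Ythdf3-/- label and 344 and 238 CPM under the WT label, without overlap (log2 fold change 1.45, SE 0.34, edgeR adjusted p = 0.96). It averaged 840 ± 163 CPM (SD, n = 3) under the Ythdf3-/- label and 290.7 ± 75.2 CPM (SD, n = 2) under the WT label. Gabpb1, the partner of GABPA, had 112, 116 and 76.4 CPM under the Ythdf3-/- label and 88.6 and 16.1 CPM under the WT label. Of 11 tested transcripts of mitochondrial DNA 10 were fitted lower with a median of -0.84, against 1 of 11 and a median of 0.45 with the library labelled WT 2 left out. ND4 had 412, 367 and 327 CPM under the Ythdf3-/- label and 332 and 921 CPM under the WT label, and ND6 had 22.96, 12.6 and 16.1 CPM under the Ythdf3-/- label and 11.4 and 162 CPM under the WT label.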

How the data were processed

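Raw read counts per gene symbol were deposited by the authors for 5 libraries of 30 sorted HSCs each, sequenced as paired 150-bp reads, per the labels' protocols. The submitters' processing notes list HISAT2 2.2.1, HTSeq 0.12.4 and mm10. The annotation and the handling of reads with several matches were not given in the sources used here. Totals ran from 6357862 to 16650134 counts, so 1 count was worth 0.0601 to 0.157 CPM. Reads carry no molecule identifiers.

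Groups follow the titles, 3 libraries labelled Ythdf3-/- and 2 labelled WT. The series text says that each came from a different mouse. Counts were tested in R 4.3.3 with edgeR 4.0.16 (quasi-likelihood, robust, default filter, TMM, no covariate, 11146 genes, Benjamini-Hochberg at 0.05). Standard errors were derived from F. DESeq2 1.42.0, limma 3.58.1 voom, 3 other scalings, 2 other filters, libraries left out and a replicate block were alternatives. The edgeR, voom and DESeq2 steps were run on simulated counts with the same dispersion for every gene and with large changes. These runs checked the steps and not their power on these data. Members, lists and rules were chosen with earlier results of these data known, and the regions of the large subunit after the values were seen.

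Besides Ythdf3, the members named by rule were the 8 per direction with the smallest p, the 6 highest per kb, those nearest the minimum and, per list, the 2 genes with the smallest p. Others were chosen after their values were seen, for steady levels, low counts, position in the ribosome or groups that do not overlap. Symbols of all 77 members matched GENCODE M21, which is on GRCm38 (mm10), and 25 share exon bases with another gene, 8 of them more than 25% of their own. The members' pseudogenes were not examined. The motifs were chosen by hand.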

Additional observations from a re-analysis of the deposited data

How the results depend on the processing

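No member was called by edgeR, DESeq2 or limma voom under any alternative run, with a lowest adjusted p of 0.188 in DESeq2. Over all genes 0 were called in edgeR, against 21 without the low-count filter, 598 in DESeq2 and 0 to 1 when each library was left out, the 1 being without the library labelled WT 1. For the 77 members the median log2 fold change, -0.42, ran from -0.62 to -0.18 over the left-out libraries. That of the Mrpl genes ran from -0.64 to -0.24 and that of the Mrps genes from -0.48 to -0.084. The median of all genes moved too, from -0.06 to 0.31 without the library labelled WT 1 and to 0.22 without that labelled WT 2. The member median minus that of all genes was -0.35. It ran from -0.93 without WT 1 to -0.22 without Ythdf3-/- 3, and was -0.40 without WT 2, each against the genes tested in that fit. The fits without WT 1 and without WT 2 tested 12771 and 12759 genes, against 11146 in the main fit. Over the genes also tested in the main fit, the medians of all genes were 0.18 and 0.11, nearer the member medians than 0.31 and 0.22. The values -0.93 and -0.40 thus also hold a change of gene set. The log2 ratio of summed CPM, -0.29, ran from -0.49 to -0.044 and was -0.058 without the libraries labelled WT 2 and Ythdf3-/- 1 together. A fit that leaves 1 library labelled WT assumes that it varies like the others. Replicate numbers are shared by the labels, and deviations from the label means correlated by -0.0043 and 0.0094 in the 2 pairs. With 2 libraries labelled WT their deviations mirror each other, so these values cannot decide whether the numbers pair the samples. With the replicate block 0 members and 0 genes were called, 285 genes against 541 had an unadjusted p under 0.05, and the member median was -0.30.

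Of 308 alternative values for the 22 members named by rule for their p or their level per kb, 15 changed sign, in 6 members. Without the libraries labelled WT 2 and Ythdf3-/- 1 together the log2 fold change of Mrpl20 was 0.0076, of Mrpl23 0.090 and of Mrpl34 0.53. Over the left-out libraries Mrpl23 ran from -0.45 to 0.059, Mrpl3 from -0.15 to 1.16, Mrpl34 from -1.36 to 0.50, Mrpl42 from -0.67 to 0.095 and Mrps12 from -0.33 to 0.40. Mrps12, at -0.018, was 0.013 with RLE scaling, 0.023 with upper-quartile scaling, 0.054 with library totals only, 0.012 with at least 1 CPM in all 5 libraries, 0.017 in DESeq2 and 0.24 with the replicate block. Beyond what each alternative's construction shows, the cause was not tested.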
